A study of Mus musculus with 12 samples.

Results

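The mitochondrial ribosomal protein genes are nuclear genes whose products form the protein part of the ribosome inside mitochondria. They were taken from the P3 expression table as the protein-coding genes whose symbol begins with Mrps or Mrpl and a number. This gave 78 genes of the 31091 in the table, of which 29 carry an Mrps symbol (small subunit) and 49 an Mrpl symbol (large subunit). The study addresses the loss of Znhit3, a gene for a zinc finger protein known from the assembly of small nucleolar RNA-protein complexes, in granule cell progenitors, the dividing cells of the early postnatal cerebellum that give rise to granule neurons. Poly(A) RNA was sequenced from cells of Znhit3 conditional knockout (cKO) mice and of wild-type control mice, both at postnatal day 3 (P3), with 3 libraries in each group. The labels do not name the Cre line, the strain, the sex or whether animals were pooled, and p-values therefore measure the spread between libraries, which may be technical. Libraries of the same kind from postnatal day 6 were not analysed here.

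The mitochondrial ribosome translates the mRNAs of the mitochondrial genome, which encode core subunits of the respiratory chain complexes and of ATP synthase. Its RNAs come from the mitochondrial genome, whereas all of its proteins are made in the cytosol and imported. A core of these proteins has homologs in bacterial ribosomes, and the others are found in mitochondria only. Mutations in several of these genes cause mitochondrial disease in humans, often with involvement of the brain.

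The 6 libraries held between 29119803 and 52961445 counted reads. Znhit3 itself had 4.03, 4.01 and 4.57 FPKM (fragments per kilobase of gene length, scaled to the depth of the library) in cKO libraries, against 9.15, 8.62 and 8.58 FPKM in control libraries. The groups did not overlap, and cKO libraries held 47.8% of the control level (exact two-sided permutation p = 0.1, the smallest that 3 against 3 libraries allow; limma adjusted p = 0.00024). The test covered 13538 genes whose mean over the libraries reached 1 FPKM. With limma on log2(FPKM + 1) and a threshold of 0.05 on the Benjamini-Hochberg adjusted p, 2590 of them (19.1%) were called, of which 777 were lower and 1813 higher in cKO cells. Higher calls made up 70.0% of these, and 81.7% after scaling to TPM, 56.8% after quantile normalization and 52.9% after removal of the trend with gene length. Differences were taken as cKO minus control after the log2(FPKM + 1) transform, which makes the changes of low genes look smaller, and the error beside each is its SE.

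All 78 mitochondrial ribosomal protein genes were expressed above that minimum, with at least 299 reads for every gene in every library. In cKO cells 8 of them fell and 1 rose, and 69 were not called. The lower share was 10.3% of the members, where 5.74% of all tested genes were called lower. A higher call was made for 13.4% of all tested genes, and Mrpl1 was the member with one. All of the called members carry Mrpl symbols. The called changes were small: the genes that fell had between 77.0% and 86.1% of the control mean. Without cKO replicate 2, control replicate 2 or control replicate 3 the count of lower members was 2, where 2.57%, 2.76% and 3.21% of all genes were called lower. Without cKO replicate 3 it was 3 (background 3.27%), and without cKO replicate 1 it was 8 (5.23%). Without control replicate 1 there were 10 (4.95%), of which 4 were among the 8.

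The shift went in the same direction in most members, called or not. The difference was below 0 in 63 of 78 members (80.8%), where 42.1% of all tested genes were below 0. The median difference was -0.092 for the members and 0.032 for all tested genes. Member differences reached from -0.36 for Mrpl55 to 0.26 for Mrpl1, with quartiles at -0.15 and -0.019. All 3 cKO libraries lay below all 3 control libraries in 19 members (24.4%), where this held for 13.2% of all tested genes. All 3 cKO libraries lay above the control libraries in Mrpl1 alone, where 27.3% of all tested genes showed that order. In the cumulative plot of the differences both member curves cross their midpoint to the left of the curve of all tested genes, while the strongest decreases of all genes lie beyond those of the members. The counts below 0 moved with the processing. After removal of the trend with gene length, 55 of 78 members and 51.4% of all tested genes were below 0. After scaling to TPM these were 55 of 78 members and 33.55%.

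**Figure D1:**
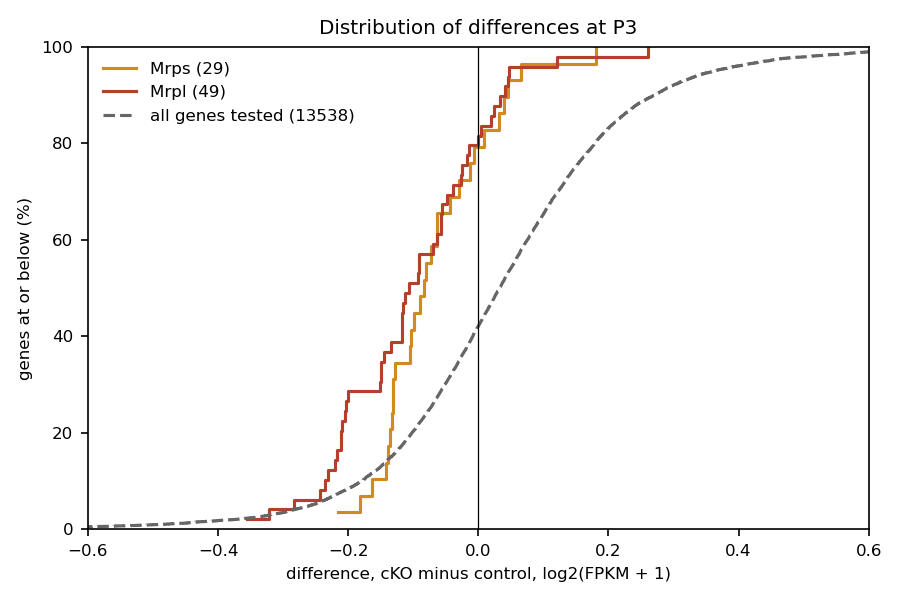
Cumulative distribution (percent of genes at or below each value) of the differences in log2(FPKM + 1), cKO minus control, for Mrps genes, Mrpl genes and all tested genes. The members have a median of -0.092 and all tested genes 0.032, and no member lies beyond -0.36 or 0.26.

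Mrpl58 had the smallest p of the members. Its product, also known as ICT1, is a peptidyl-tRNA hydrolase that is both a structural protein of the large subunit and a release factor for stalled mitochondrial ribosomes. It had 9.92, 9.74 and 10.3 FPKM in cKO libraries, against 11.7, 12.3 and 12.1 FPKM in control libraries. The groups did not overlap, and Mrpl58 fell by 0.24 ± 0.04 (limma adjusted p = 0.0092). It was called lower in all 18 alternative analyses, the only member of which this was true. An antisense gene, Ict1os, overlaps it, and the use of strand in counting is not given in the sources used here, so reads of the pair cannot be told apart.

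Among the genes for large subunit proteins found in mitochondria only, Mrpl53, Mrpl41 and Mrpl42 also fell. Mrpl53, among the most abundant members, had 40.9, 42.4 and 40.0 FPKM in cKO libraries, against 49.3, 47.2 and 46.7 FPKM in control libraries (fell by 0.21 ± 0.04, limma adjusted p = 0.014). Mrpl41 had 32.6, 29.4 and 33.0 FPKM in cKO libraries, against 36.2, 38.0 and 38.1 FPKM in control libraries (fell by 0.24 ± 0.05, limma adjusted p = 0.022). Mrpl42 had 22.3, 20.0 and 17.7 FPKM in cKO libraries, against 25.1, 24.1 and 26.3 FPKM in control libraries (fell by 0.32 ± 0.08, limma adjusted p = 0.026). None of these 3 genes had overlapping groups, and Mrpl42 was the most variable of them among cKO libraries. The call for Mrpl53 was kept without any one library, with adjusted p up to 0.049. That for Mrpl41 was lost without cKO replicate 2 (limma adjusted p = 0.073), control replicate 2 (adjusted p = 0.072) or control replicate 3 (adjusted p = 0.068), and that for Mrpl42 was lost without any library but cKO replicate 1 (adjusted p between 0.052 and 0.079 in limma). After removal of the length trend the adjusted p in limma was 0.085 for Mrpl53 and 0.068 for Mrpl41.

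Mrpl55, Mrpl35, Mrpl24 and Mrpl15 encode large subunit proteins with bacterial homologs, and all of them fell. Mrpl55 fell most on the log2 scale among the members, with 24.5, 22.5 and 23.1 FPKM in cKO libraries, against 26.5, 29.7 and 34.8 FPKM in control libraries (fell by 0.36 ± 0.09, limma adjusted p = 0.030). Control replicate 3 was its highest library, and control replicate 1 stood closest to the cKO libraries. Mrpl35 was a low member, with 4.47, 5.15 and 5.38 FPKM in cKO libraries, against 5.98, 6.95 and 5.97 FPKM in control libraries (fell by 0.28 ± 0.08, limma adjusted p = 0.041). Mrpl24 had 23.0, 20.9 and 19.5 FPKM in cKO libraries, against 24.8, 25.2 and 23.8 FPKM in control libraries (fell by 0.21 ± 0.06, limma adjusted p = 0.049). Mrpl15 had 6.12, 5.23 and 5.71 FPKM in cKO libraries, against 6.64, 6.53 and 6.89 FPKM in control libraries (fell by 0.20 ± 0.06, limma adjusted p = 0.0496). The groups did not overlap in any of the 4 genes, and the calls for Mrpl24 and Mrpl15 lie just inside the threshold.

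Most of these calls rest on having all 6 libraries. Without any library but cKO replicate 1, the adjusted p in limma was between 0.080 and 0.13 for Mrpl24 and between 0.093 and 0.15 for Mrpl15. For Mrpl35 it was between 0.050 and 0.11 whichever library was left out. For Mrpl55 the call was lost without cKO replicate 2 (limma adjusted p = 0.097), cKO replicate 3 (adjusted p = 0.076), control replicate 2 (adjusted p = 0.078) or control replicate 3 (adjusted p = 0.051). Mrpl24 overlaps its neighbour Rrnad1 on the chromosome, which leaves the source of shared reads uncertain.

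Mrpl1 rose. Its product is the mitochondrial member of the L1 protein family, which in bacterial ribosomes forms the mobile stalk beside the site where used tRNAs leave. It had 5.23, 5.89 and 5.97 FPKM in cKO libraries, against 4.42, 4.55 and 4.78 FPKM in control libraries. The groups did not overlap, and the cKO mean was 1.24-fold the control mean (difference 0.26 ± 0.06, limma adjusted p = 0.024). The call was lost without cKO replicate 2 (limma adjusted p = 0.087), cKO replicate 3 (adjusted p = 0.071), control replicate 1 (adjusted p = 0.062) or control replicate 2 (adjusted p = 0.070), and under quantile normalization (adjusted p = 0.080). Mrpl1 overlaps no other gene of the table.

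**Figure D2:**
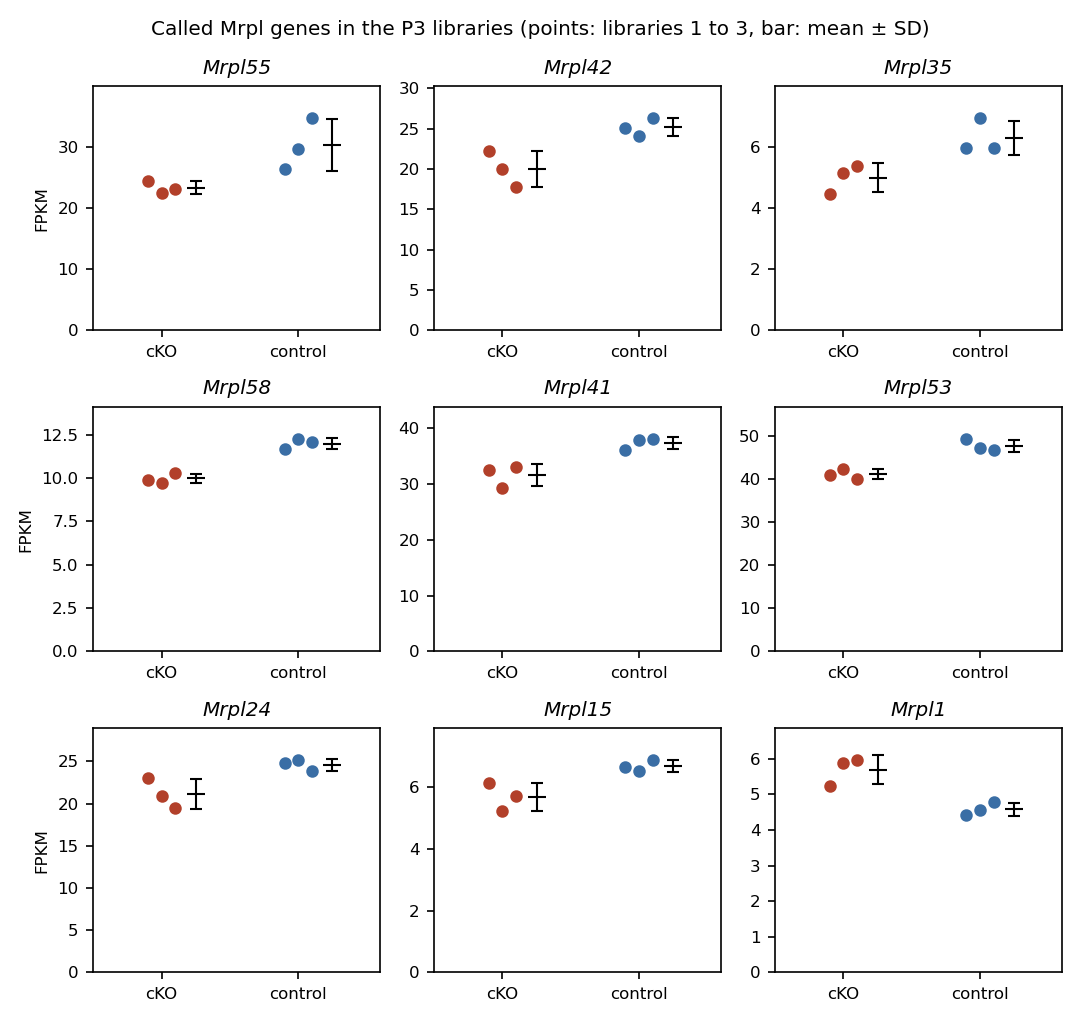
FPKM of the 9 called members in each library, cKO points left of control points, with the group mean and SD (n = 3 each). In every panel the 3 cKO points lie on one side of the 3 control points, above them for Mrpl1 and below them for the 8 others.

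The stretch of 250 bases before the annotated start was read from RefSeq promoter windows (build GRCm38.p6) for 69 of the 78 members, and searched on both strands for 3 motifs known from promoters of nuclear genes for mitochondrial proteins. These were GCATGCGC for NRF1, CCGGAAG for ETS factors such as GABPA, and AANATGGC for YY1. In the printed windows no match overlaps another. The windows of the 2 members with the smallest p that fell, of a member that fell with a YY1 match, of Mrpl22 as an uncalled member with 2 kinds of match, and of Mrpl1 as the member that rose are printed 5′ to 3′ with matches in capitals. They lie on the plus strand at chr11:115403502-115403751 for Mrpl58, chr6:83108858-83109107 for Mrpl53, chr3:87919294-87919543 for Mrpl24, chr11:58171414-58171663 for Mrpl22 and chr5:96209865-96210114 for Mrpl1.
Mrpl58: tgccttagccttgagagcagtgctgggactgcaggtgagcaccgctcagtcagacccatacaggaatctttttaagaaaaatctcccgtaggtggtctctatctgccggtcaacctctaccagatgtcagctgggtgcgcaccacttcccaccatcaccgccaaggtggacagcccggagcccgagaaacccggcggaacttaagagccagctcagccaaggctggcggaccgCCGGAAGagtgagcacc
Mrpl53: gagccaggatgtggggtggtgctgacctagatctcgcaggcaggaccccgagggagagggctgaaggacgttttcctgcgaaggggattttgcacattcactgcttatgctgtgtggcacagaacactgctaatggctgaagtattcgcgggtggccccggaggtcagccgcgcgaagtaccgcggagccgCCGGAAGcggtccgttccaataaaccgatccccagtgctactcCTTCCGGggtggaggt
Mrpl24: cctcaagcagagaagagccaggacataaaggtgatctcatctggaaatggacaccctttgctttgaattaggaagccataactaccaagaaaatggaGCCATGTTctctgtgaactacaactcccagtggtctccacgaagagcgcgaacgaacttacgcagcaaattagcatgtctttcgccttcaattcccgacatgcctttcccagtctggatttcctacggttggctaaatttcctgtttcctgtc
Mrpl22: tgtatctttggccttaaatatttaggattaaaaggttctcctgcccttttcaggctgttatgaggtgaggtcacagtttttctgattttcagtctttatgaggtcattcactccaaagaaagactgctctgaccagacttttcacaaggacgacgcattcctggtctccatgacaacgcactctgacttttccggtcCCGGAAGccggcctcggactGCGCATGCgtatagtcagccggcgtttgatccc
Mrpl1: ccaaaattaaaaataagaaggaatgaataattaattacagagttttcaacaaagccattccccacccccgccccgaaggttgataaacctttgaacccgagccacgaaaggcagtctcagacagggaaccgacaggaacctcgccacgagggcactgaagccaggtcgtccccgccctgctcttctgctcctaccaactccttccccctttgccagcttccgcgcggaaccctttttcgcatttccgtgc

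The capitals mark an ETS match in Mrpl58, an ETS match on each strand in Mrpl53, a YY1 match on the opposite strand in Mrpl24, and an ETS and an NRF1 match in Mrpl22. The window of Mrpl1 holds none of the 3 motifs. Over the matched members, the NRF1 motif stood in 8 (11.6%), the ETS motif in 18 (26.1%) and the YY1 motif in 7 (10.1%). Among 9892 tested genes with a window these shares were 5.19%, 15.6% and 5.31%, and among all 27025 genes with one 2.56%, 7.83% and 4.49%. A gene with several windows was counted if any of them held a match. Of the 8 members that fell 7 had a window, with an ETS match in 2, a YY1 match in 1 and an NRF1 match in 0. A match is a run of letters and no shown binding site, and a window without one says nothing about the factor.

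Levels per length differed widely among the members, from 1.78 to 41.8 FPKM in cKO means and from 2.1 to 48.5 FPKM in control means. The median member stood at 14.7 FPKM in cKO cells and 15.3 FPKM in control cells. Large subunit genes were the higher family, with a median level of 18.0 FPKM in cKO cells and 20.0 FPKM in control cells, against 9.48 FPKM and 10.1 FPKM for Mrps genes. The FPKM scale divides by the deposited gene length, and the shorter 39 members had a median level of 21.9 FPKM in cKO cells and 23.9 FPKM in control cells, against 8.56 FPKM and 8.64 FPKM for the longer 39.

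Mrpl28, a homolog of a bacterial large subunit protein, had the highest mean of the members in both groups, just above Mrpl53. Mrpl28 had 41.7, 42.3 and 41.4 FPKM in cKO libraries, against 43.3, 49.9 and 52.3 FPKM in control libraries. All cKO libraries were below all control libraries, yet the difference of -0.21 ± 0.07 missed the threshold (limma adjusted p = 0.067). It passed without control replicate 1 (limma adjusted p = 0.012), the control library nearest to the cKO libraries. Mrpl34 averaged 41.4 ± 2.5 FPKM in cKO cells and 44.3 ± 4.8 FPKM in control cells (SD, n = 3 each). Mrpl12, whose product forms the stalk that recruits translation factors, averaged 39.3 ± 2.9 FPKM in cKO cells and 40.7 ± 3.2 FPKM in control cells. Mrpl2, near the peptidyl transferase centre in bacterial ribosomes, averaged 37.0 ± 2.7 FPKM in cKO cells and 35.8 ± 2.5 FPKM in control cells. For Mrpl34, Mrpl12 and Mrpl2 the groups overlapped, and the order of these abundant genes is not separated beyond their spread.

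At the low end per length, Mrpl33, of 7326 bases, had 1.78, 1.75 and 1.80 FPKM in cKO libraries, against 2.26, 2.26 and 1.77 FPKM in control libraries. Control replicate 3 lay among the cKO values, and the difference of -0.15 was not called (limma adjusted p = 0.23). Mrpl47 averaged 5.45 FPKM in cKO cells and 5.52 FPKM in control cells, a difference of -0.015 that was not called and changed sign with TPM scaling. Just outside the threshold, besides Mrpl28, stood Mrpl30, Mrpl20, Mrpl46 and Mrpl21, with differences between -0.12 and -0.22 and limma adjusted p between 0.061 and 0.088. Mrpl20, a homolog of a bacterial protein that acts early in assembly of the large subunit, had 29.4, 30.7 and 30.3 FPKM in cKO libraries, against 31.2, 35.6 and 37.6 FPKM in control libraries. Mrpl46 and Mrpl20 passed without control replicate 1 (limma adjusted p = 0.017 and adjusted p = 0.016). Mrpl44, which carries a domain related to ribonuclease III, had its mean on the other side, with 16.5 ± 1.1 FPKM in cKO cells and 15.1 ± 1.1 FPKM in control cells, and was not called.

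No Mrps gene was called by limma (0 of 29), and voom on the recovered read counts also called 0. At an unadjusted p under 0.05, 3 of the 29 were lower and 0 higher. The same threshold gave 1621 lower and 3225 higher of 13538 tested genes. The median difference of Mrps genes was -0.083, and 23 of 29 were below 0. For Mrpl genes the median was -0.11, and 40 of 49 were below 0. Whether the families differ was not tested, and 4 of the 18 alternatives called 2 Mrps genes lower. These were Mrps12 and Mrps28 without control replicate 1, Mrps9 and Mrps35 with quantile normalization and with the length trend removed, and Mrps9 and Mrps23 with array weights. The share of all tested genes called lower was 4.95% without control replicate 1 and 6.08% with quantile normalization. It was 7.67% with the length trend removed and 8.66% with array weights.

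Mrps9, a homolog of a bacterial protein whose tail reaches the tRNA at the peptidyl site, came nearest among Mrps genes. It had 7.93, 7.84 and 7.76 FPKM in cKO libraries, against 8.69, 9.23 and 8.38 FPKM in control libraries (difference -0.14 ± 0.05, limma adjusted p = 0.073). The groups did not overlap, and the same held for Mrps35 and Mrps25, which are found in mitochondria only and were not called. Mrps23, also of mitochondria only, had 30.2, 29.9 and 32.4 FPKM in cKO libraries, against 32.2, 34.8 and 34.7 FPKM in control libraries, with cKO replicate 3 just above control replicate 1 (not called). Mrps12, the mitochondrial homolog of the bacterial decoding site protein in which streptomycin resistance arises, averaged 18.0 ± 1.2 FPKM in cKO cells and 20.6 ± 2.3 FPKM in control cells (not called).

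Among the other abundant Mrps genes, Mrps21 averaged 31.5 FPKM in cKO cells and 33.6 FPKM in control cells, Mrps33 30.6 FPKM and 31.8 FPKM, and Mrps7, a protein of the small subunit head, 27.1 FPKM and 27.4 FPKM. Mrps15, with 20.4 FPKM in cKO cells and 23.0 FPKM in control cells, and Mrps28, with 18.9 FPKM and 20.8 FPKM, had differences of -0.16 and -0.13. None of these 5 genes was called. The least abundant per length were Mrps10, with 3.86 FPKM in cKO cells and 4.23 FPKM in control cells, and Mrps30, with 3.88 FPKM and 4.35 FPKM. Their deposited lengths are 8079 and 6666 bases. In reads Mrps10 was not low, with 950 to 1700 per library, where Mrps21, of 739 bases, had 645 to 1427. Mrps16 went the other way, with 8.82, 8.42 and 8.43 FPKM in cKO libraries, against 6.15, 8.60 and 7.73 FPKM in control libraries. Control replicate 1 alone set most of that difference of 0.18 ± 0.10, which was not called (limma adjusted p = 0.23).

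The bacterial S18 protein has 3 mitochondrial paralogs in mammals, Mrps18a, Mrps18b and Mrps18c. Mrps18a averaged 9.48 FPKM in cKO cells and 10.2 FPKM in control cells, Mrps18b 5.43 FPKM and 5.73 FPKM, and Mrps18c 9.42 FPKM and 9.45 FPKM. None was called. The products of Mrps18a and Mrps30 sit in the large subunit despite their symbols, so a split by symbol is not exactly a split by subunit. Mrps36, whose product is also known as a component of the 2-oxoglutarate dehydrogenase complex, had the most negative difference of the Mrps genes, -0.22 ± 0.11, with overlapping groups and no call.

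By origin, the 48 members with bacterial homologs had 4 lower calls, 1 higher call and a median difference of -0.092. The 30 members of mitochondria only had 4 lower calls, 0 higher calls and a median of -0.098. The lower shares were 8.33% and 13.3%, where 5.74% of all tested genes were called lower and 13.4% higher. The lists were close in median and both lay below the median of all tested genes.

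**Figure D3:**
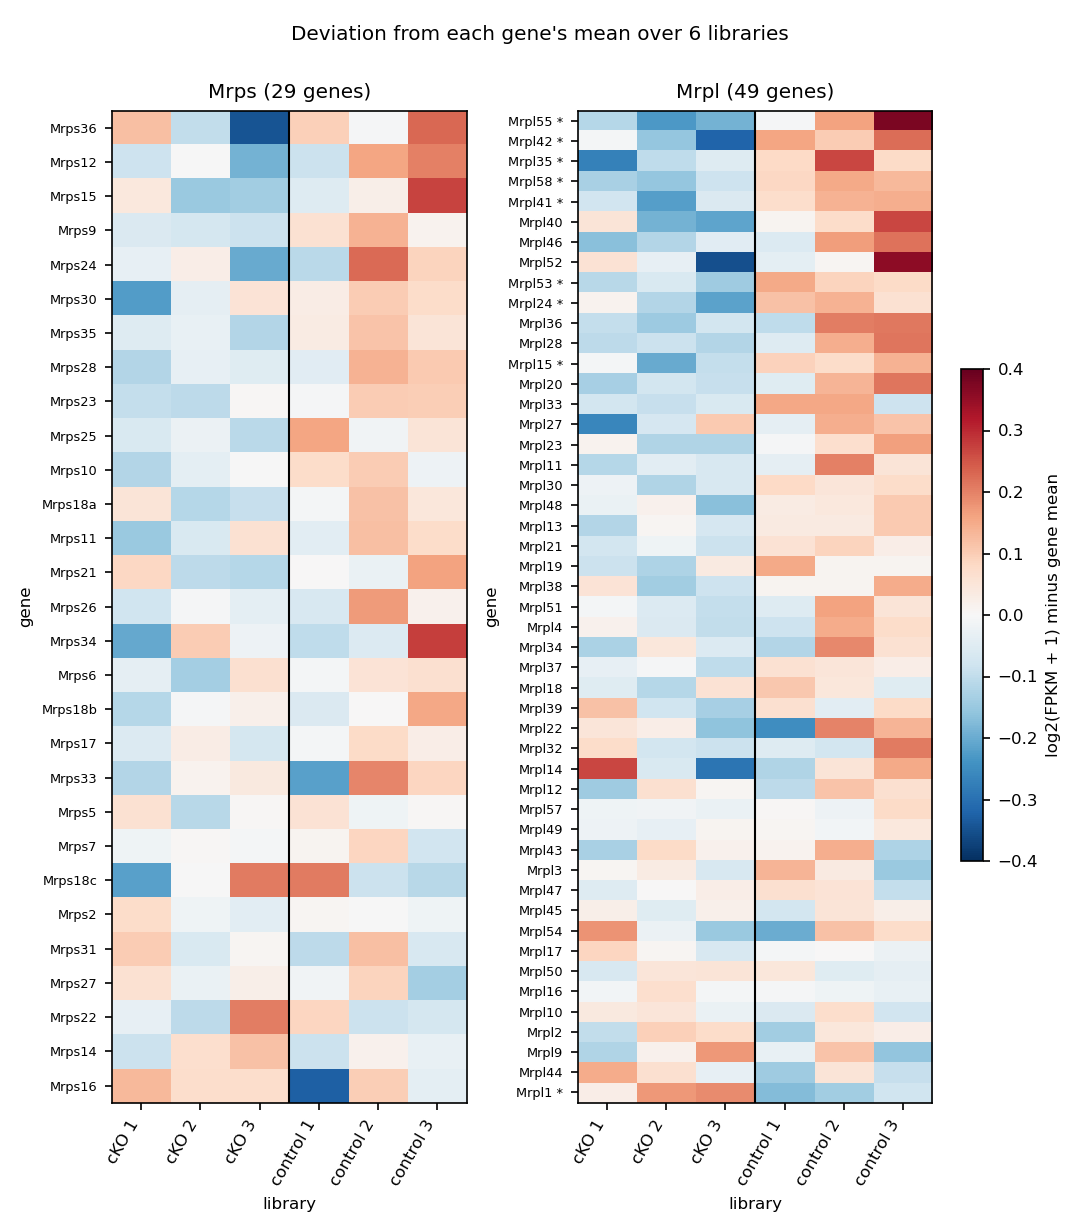
Deviation of each member's log2(FPKM + 1) from its mean over the 6 libraries, Mrps and Mrpl genes apart, cKO libraries left of control libraries. Control replicates 2 and 3 hold most of the high values, with 30 and 24 of the 78 members at their highest there, and control replicate 1 is nearer to the cKO libraries.

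Summed over the 78 genes, the cKO libraries held 1271, 1262 and 1250 FPKM, against 1290, 1396 and 1396 FPKM in control libraries. The cKO sum was 92.7% of the control sum, with means of 1261 ± 10.6 FPKM in cKO cells and 1361 ± 60.9 FPKM in control cells (SD, n = 3 each). The groups did not overlap, but control replicate 1 stood nearer to the cKO libraries than to the other control libraries. The Mrps sum was 94.4% of the control sum and the Mrpl sum 91.9%. The FPKM of all genes also summed to less in cKO libraries, 273313 to 279284 against 280901 to 287334 in control libraries. As a share of that sum, members held 0.455%, 0.458% and 0.457% in cKO libraries. In control libraries the share was 0.459%, 0.492% and 0.486%, the first of them just above the cKO values. Members took 0.283% of all counted reads in cKO cells and 0.303% in control cells. The median deviation of the members from their own mean over all libraries was -0.041, -0.038 and -0.060 on the log2 scale in cKO replicates 1, 2 and 3. In control replicates 1, 2 and 3 it was -0.0053, 0.081 and 0.064, so the first of these lay between the groups.

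The authors' deposited table, which holds their own test, called 22 of the 78 members lower (28.2%, where it called 11.6% of 16021 genes lower) and 1 higher (11.4% of genes). All 8 members that fell by limma, and Mrpl1, are called there in the same direction. Mrps9, Mrps23 and Mrps35 are the Mrps genes called lower in the authors' deposited table, 3 in all, beside 19 Mrpl genes. The authors' deposited table gives a negative fold change for 74 of 78 members, with a median log2 fold change of -0.15 for the members and -0.0047 for all genes tested there. The size in that table was -0.38 ± 0.08 for Mrpl42 and -0.43 ± 0.10 for Mrpl55, with adjusted p of 8.9e-06 and 0.00033 in the authors' deposited table.

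Gene length moved with the differences across all genes. Protein-coding genes no longer than the members' median length of 2394 bases were called lower in 11.2% of cases and lay below 0 in 63.2%, with a median difference of -0.058 over 2072 genes. Longer protein-coding genes were called lower in 4.53% and lay below 0 in 36.1%, with a median of 0.052 over 10020 genes. Within the members, the shorter 39 had 4 lower calls, 33 below 0 and a median of -0.091, and the longer 39 had 4 lower calls, 1 higher call, 30 below 0 and a median of -0.093. With the length trend over all genes removed, the member median was -0.087, against -0.0058 for all genes, and 8 members were lower, of which 5 were among the 8 of the fit without that step. The background for a lower call was then 7.67%, and 55 of 78 members lay below 0, against 51.4% of all genes.

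Overlapping genes are a further source of doubt in counting. Of the 78 members 38 overlap another gene of the table, 33 of them one on the opposite strand. Among the genes named above, Mrpl53 shares 15 bases with the antisense gene Ccdc142os, Mrpl15 lies over the low gene Gm37144, and Mrpl46 and Mrps11 overlap each other by 413 bases on opposite strands. Longer overlaps on opposite strands include Mrpl33 with Rbks (39946 bases), Mrps18a with Rsph9 (6876 bases) and Mrps25 with Nr2c2 (4770 bases). Mrpl47 shares 1577 bases with Actl6a, which averaged 31.9 FPKM over the 6 libraries. The 40 members that overlap none had 4 lower calls, 1 higher call, 30 below 0 and a median of -0.092. The 23 members beside an opposite-strand gene of at least 1 FPKM had 3 lower calls, 21 below 0 and a median of -0.12. The lower shares were 10% and 13.0%. Of all tested genes 5.74% were called lower, 13.4% were called higher and 42.1% lay below 0. Of 5 pseudogenes with an Mrps or Mrpl symbol, Mrpl23-ps1 had between 1.58 and 3.26 FPKM in cKO libraries and between 2.63 and 3.52 FPKM in control libraries, and the other 4 stayed under 1 FPKM in every library, so reads shared with Mrpl23, Mrpl27, Mrpl48 and Mrps36 remain uncertain.

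Of 6 genes listed as subunits that carry other symbols none was called by limma, with 1 lower and 0 higher at an unadjusted p under 0.05 and 0 by voom, and their median difference was -0.079. Dap3, a GTP-binding protein of the small subunit, averaged 11.7 FPKM in cKO cells and 12.2 FPKM in control cells, and Ptcd3 11.1 FPKM and 11.3 FPKM. Chchd1 averaged 40.7 FPKM in cKO cells and 43.8 FPKM in control cells, Aurkaip1 24.8 FPKM and 27.2 FPKM, and Gadd45gip1 2.18 FPKM and 2.13 FPKM. Oxa1l, the inner membrane insertase that receives the new chains and was listed with them, averaged 18.6 ± 0.70 FPKM in cKO cells and 20.2 ± 0.77 FPKM in control cells (limma adjusted p = 0.13).

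Assembly factors, translation factors, mitochondrial tRNA synthetases, genes of mitochondrial DNA expression and mitochondrial mRNAs had medians between 0.0047 and 0.031, where the median of all tested genes was 0.032. Over these and the 6 genes listed with other symbols, 100 of 102 genes were tested. They had 1 lower call, 2 higher calls, 42 below 0 and a median difference of 0.013. Over all tested genes 5.74% were called lower, 13.4% were called higher and 42.1% lay below 0. Of 27 ribosome assembly factors, Mettl17, an assembly factor of the small subunit, fell to 8.52 ± 0.49 FPKM in cKO cells, against 9.95 ± 0.30 FPKM in control cells (difference -0.20 ± 0.05, limma adjusted p = 0.033). Trub2, a pseudouridine synthase family protein, rose to 6.60 ± 0.28 FPKM in cKO cells, against 5.70 ± 0.26 FPKM in control cells (difference 0.18 ± 0.05, limma adjusted p = 0.046). Of 17 mitochondrial tRNA synthetases, Mars2, for methionine, rose to 2.40 ± 0.21 FPKM in cKO cells, against 1.86 ± 0.08 FPKM in control cells (difference 0.25 ± 0.07, limma adjusted p = 0.045). All 3 calls are fragile: without any one library the adjusted p in limma was between 0.055 and 0.088 for Mettl17 and between 0.062 and 0.15 for Trub2, and for Mars2 it was between 0.079 and 0.14 without any library but cKO replicate 1.

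Limma called none of 17 translation factors, 20 genes of mitochondrial DNA expression and 13 mitochondrially encoded mRNAs. At an unadjusted p under 0.05 there were 2 lower translation factors, 2 higher genes of mitochondrial DNA expression and 0 mitochondrial mRNAs. That threshold gave 1621 lower and 3225 higher of 13538 tested genes. Voom called 2 translation factors lower, where it called 8.15% of all tested genes lower. Tufm, the elongation factor that delivers tRNAs to the mitochondrial ribosome, averaged 36.7 ± 2.1 FPKM in cKO cells and 41.1 ± 1.8 FPKM in control cells (limma adjusted p = 0.077). Hsd17b10, a subunit of mitochondrial RNase P, averaged 45.4 FPKM in cKO cells and 46.7 FPKM in control cells. The cytochrome oxidase mRNA mt-Co1, an mRNA made in mitochondria and read by this ribosome, averaged 6896 ± 537 FPKM in cKO cells and 6655 ± 530 FPKM in control cells (limma adjusted p = 0.74).

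**Figure D4:**
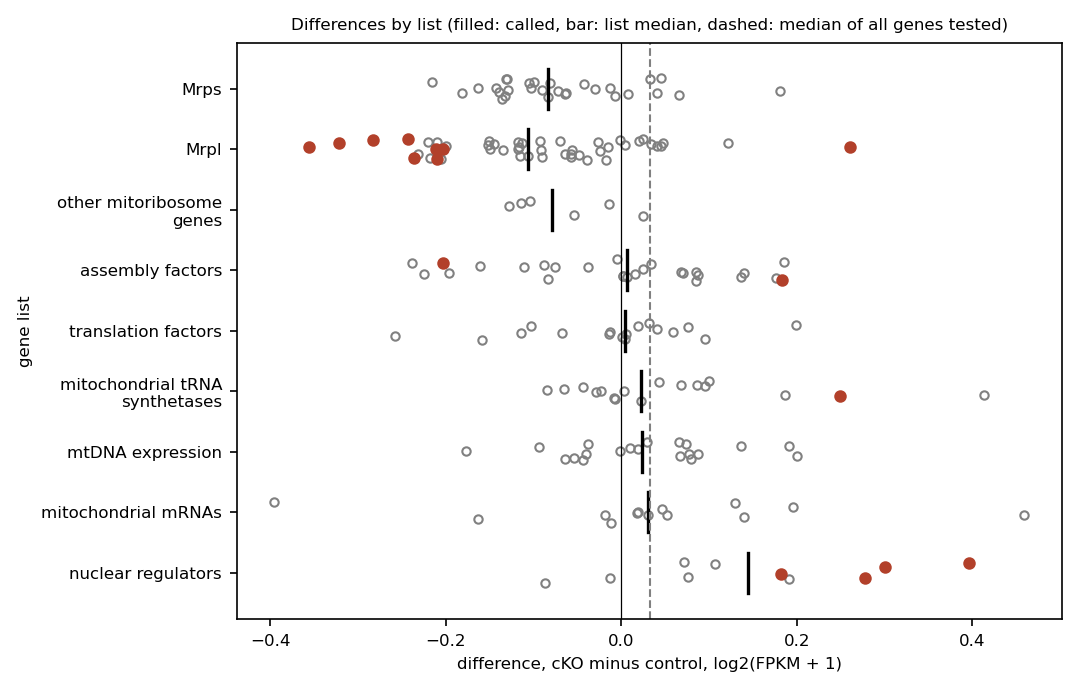
Differences in log2(FPKM + 1), cKO minus control, for each gene of the Mrps and Mrpl families and of the other mitochondrial gene expression lists, with the list medians. The Mrps and Mrpl medians lie at -0.083 and -0.11. The 6 genes listed with other symbols, Oxa1l included, lie at -0.079, and the nuclear regulators at 0.14.

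Nuclear regulators of mitochondrial genes had a median difference of 0.14, with 4 of 10 tested genes higher and 0 lower. A higher call was made for 13.4% of all tested genes. Sp1, a factor of GC-rich promoters, had 13.1, 12.8 and 12.2 FPKM in cKO libraries, against 9.45, 9.41 and 9.34 FPKM in control libraries (difference 0.40 ± 0.04, limma adjusted p = 0.0014). Gabpa, the DNA-binding subunit of an ETS factor, had 18.0, 18.8 and 19.5 FPKM in cKO libraries, against 15.0, 15.5 and 15.5 FPKM in control libraries (difference 0.28 ± 0.04, limma adjusted p = 0.0058). Both rose, without overlap of the groups and in all 18 alternative analyses. Myc also rose, to 10.3 ± 1.4 FPKM in cKO cells, against 8.14 ± 0.19 FPKM in control cells (limma adjusted p = 0.040). That call was lost without cKO replicate 2 (limma adjusted p = 0.066) or without control replicate 1, 2 or 3 (adjusted p between 0.081 and 0.11). The fourth gene was Pprc1, a coactivator, with 10.0 FPKM in cKO cells and 8.71 FPKM in control cells (limma adjusted p = 0.047). The call for Pprc1 was lost without any library but control replicate 2 (limma adjusted p between 0.079 and 0.13). The count of higher regulators was 2 without cKO replicate 2, control replicate 1 or control replicate 3. Nrf1 averaged 6.29 FPKM in cKO cells and 6.74 FPKM in control cells and Yy1 22.0 FPKM and 20.3 FPKM, neither of them called. Mycn, the most abundant gene of the list, averaged 79.5 FPKM in cKO cells and 80.2 FPKM in control cells (limma adjusted p = 0.87).

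Markers of the labelled cell type and of other cells also differed between the groups. Granule progenitor markers were present, with Atoh1 at 35.0 FPKM in cKO cells and 37.5 FPKM in control cells. Of 10 such markers 3 were called lower and 0 higher, where 5.74% of all tested genes were called lower and 13.4% higher. The 10 summed to 962 to 1013 FPKM in cKO libraries and 1158 to 1243 FPKM in control libraries. Mfap4 (211 FPKM in cKO cells, 327 FPKM in control cells) and Barhl1 (74.8 FPKM and 111 FPKM) held most of that drop. Gli1 (36.2 FPKM and 35.7 FPKM), Ccnd1 (64.5 FPKM and 61.7 FPKM) and Ccnd2 (74.2 FPKM and 70.5 FPKM) had higher cKO means, and the other markers lower ones. Every marker of the other cell types was above 0 in every library. The choroid plexus sum was lower in cKO libraries, 626 to 705 FPKM against 1339 to 1427 FPKM in control libraries, with 5 of 5 tested markers called lower. Sums were higher in cKO libraries for the others.

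Among all tested genes 13.4% were called higher, the share to set beside the counts of markers below. Endothelial markers (6 of 6 called higher) summed to between 207 and 224 FPKM in cKO libraries, against 116 to 127 FPKM in control libraries. Pericyte markers (6 of 6) summed to between 102 and 106 FPKM in cKO libraries, against 70.3 to 70.9 FPKM in control libraries. GABAergic interneuron markers (6 of 6) summed to between 56.7 and 65.2 FPKM in cKO libraries, against 31.8 to 36.4 FPKM in control libraries. The vessel and interneuron sums were thus higher in cKO libraries, with no overlap of the groups. Microglial markers (4 of 6) summed to between 159 and 182 FPKM in cKO libraries, against 131 to 135 FPKM in control libraries. Oligodendrocyte lineage markers (5 of 6) summed to between 114 and 126 FPKM in cKO libraries, against 91.5 to 99.7 FPKM in control libraries. Erythroid markers (4 of 5 tested) summed to between 1655 and 1885 FPKM in cKO libraries, against 1210 to 1475 FPKM in control libraries. Microglial, oligodendrocyte and erythroid sums showed the same order as those of the vessels. Astroglial markers (3 of 6) summed to between 839 and 870 FPKM in cKO libraries, against 807 to 832 FPKM in control libraries, and Purkinje cell markers (2 of 2 tested) to between 9.63 and 9.82 FPKM in cKO libraries, against 7.59 to 8.75 FPKM in control libraries. Not every marker followed its sum. The cKO mean was lower for Fabp7 of the astroglial list (503 FPKM in cKO cells, 533 FPKM in control cells) and for Pdgfra of the oligodendrocyte list (21.8 FPKM and 23.9 FPKM). It was also lower for Hba-a2 of the erythroid list (25.9 FPKM and 32.6 FPKM) and Pcp4 of the Purkinje cell list (0.858 FPKM and 1.02 FPKM). The other markers in this paragraph's lists had higher cKO means. The part of these cell types in the members' differences was not tested, and in bulk RNA fewer cells of a type and less RNA per cell cannot be told apart.

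How many members were called lower moved with the processing, and so did the share of all genes called lower. Both were smaller with no filter on low values, at 2 members with a background of 1.24%, and with TPM scaling, at 5 members with 4.06%. A pseudocount of 0.1 (5.7%), a minimum mean of 5 FPKM (8.52%), upper quartile scaling (6.22%) and quantile normalization (6.08%) each gave 8 lower members, and a fit with no intensity trend gave 6 (5.06%). Array weights gave 17 (8.66%), voom on the recovered reads 11 (8.15%) and a fit of protein-coding genes only 11 (7.69%). Mrpl58 was the 1 member called in each of them.

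**Figure D5:**
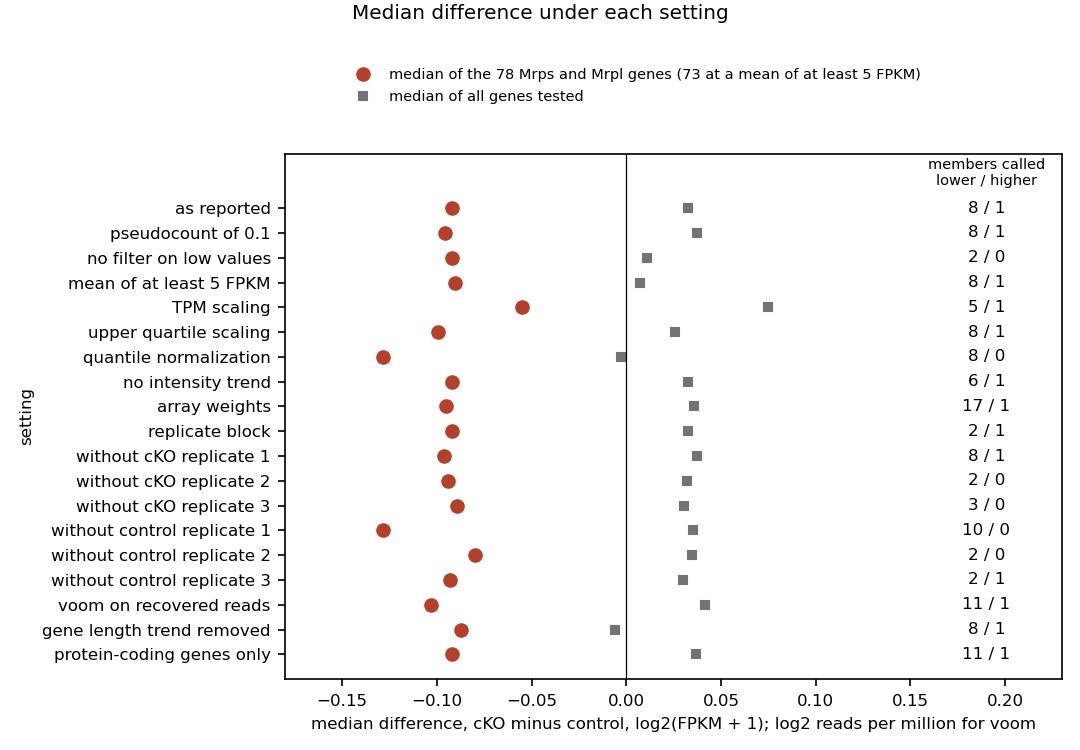
Median difference of the 78 members and of all tested genes, cKO minus control on the log2 scale, in the reported fit and in each of the 18 alternative analyses, with the number of members called lower. The member median lies below the median of all genes in every one, from -0.055 after TPM scaling to -0.13 with quantile normalization and without control replicate 1, while the lower calls run from 2 to 17.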

How the data were processed

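The labels' protocols describe poly(A) selection and dUTP-marked paired-end libraries. Named in the submitters' processing notes, with no role or order, are cutadapt 1.9, HISAT2 2.2.1, StringTie 2.1.6, DESeq2, edgeR and the build mm10. Which annotation and filters were used, and whether counting used strand, is not given in the sources used here. The authors deposited FPKM values for 6 P3 libraries and a comparison of their own, which per the file headers holds a mean signal per gene, a log2 fold change, its standard error, a test score and p-values. Its WT columns are the controls, and the others, with a different prefix, were read as cKO by exclusion.

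Every deposited FPKM value came out as a whole read number (tolerance 0.02 reads), which gave depths of 29119803 to 52961445 reads and the counts for voom, where 3732 genes were called. A count of 3 reads in 1 kb is between 0.0566 and 0.103 FPKM, a floor for counting error only. Replicates were no duplicates (chi-square per degree of freedom 4.38 to 9.71). Genes reaching a mean of 1 FPKM were tested on log2(FPKM + 1) with limma 3.58.1 (R 4.3.3), an intensity trend, no covariates and Benjamini-Hochberg adjustment over all 13538 genes. The code was tested on simulated data.

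The members and lists were chosen with earlier results of these data known. Genes named were every called member, in each family the 5 most and 3 least abundant and the 5 uncalled ones with the smallest p. The genes listed with other symbols and the leading genes of the other lists were also named. The length and overlap splits, the promoter motifs, the windows printed, and Mrps36, Mrps16, Mrpl44, Nrf1, Yy1, Mycn and Pprc1 were chosen after values were seen. The 18 alternatives covered pseudocount, filter, scaling, weights, trend, length, gene set, voom, the replicate block and each library left out.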

Additional observations from a re-analysis of the deposited data

How the results depend on the processing

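The member median of -0.092 stayed below the all-gene median in all 18 alternatives. It was -0.055 with TPM scaling and -0.13 with quantile normalization, and ran from -0.13 to -0.080 with one library left out. The 8 lower members became 2 with no filter on low values (background 1.24%), 5 with TPM scaling and 17 with array weights (8.66%), and between 2 and 10 with one library left out. All called members, 9, became 2 without the filter, 18 with array weights and between 2 and 10 with one library left out. All genes called, 2590, became 1271 without the filter and between 1207 and 2195 with one library left out. The other mitochondrial lists had 3 calls, lower or higher, among 100 tested genes, where 19.1% of all tested genes were called. These calls became 0 without the filter, 1 with upper quartile scaling, 10 with array weights and 7 with voom. They became 1 with the length trend removed, 6 with protein-coding genes only and between 0 and 4 with one library left out. Of 13538 tested genes, 2532 were called with upper quartile scaling, 3721 with array weights, 3732 with voom and 2205 with the length trend removed. With protein-coding genes only, 3171 of 12092 were called. Testing fewer or more genes changes the adjustment, and 3 libraries a group limit the precision. The part of either in these changes was not tested, nor was the cause under the other settings. Of 1001 values of named genes under an alternative, 842 kept direction and side of the threshold, 106 lost the call, 24 gained it and 29 changed sign, all 29 of them differences of 10 uncalled genes.

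The sign changes were in small differences. With TPM scaling the difference was 0.022 for Mrpl47, 0.032 for Mrps18c, 0.027 for Mrps7 and 0.025 for Ptcd3. With array weights it was 0.00078 for Mrpl47, 0.013 for Mrps18c and 0.00024 for Mrps7. With the length trend removed it was 0.020 for Hsd17b10, 0.0029 for Mrpl12, 0.059 for Mrps18c, 0.0018 for Mrps33 and 0.015 for Mrps7. With quantile normalization it was -0.064 for Gadd45gip1 and 0.020 for Hsd17b10. With one library left out it ran from -0.045 to 0.080 for Gadd45gip1, from -0.11 to 0.012 for Mrpl12, from -0.013 to 0.11 for Mrpl2, from -0.066 to 0.013 for Mrpl47, from -0.11 to 0.10 for Mrps18c, from -0.16 to 0.044 for Mrps33, from -0.055 to 0.026 for Mrps7, from -0.037 to 0.0071 for Ptcd3 and from -0.016 to 0.088 for mt-Co1.

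Whether the replicate numbers pair the libraries is not settled. Deviations from the group mean had same-number correlations of -0.024, 0.036 and -0.097 between cKO and control libraries. Different numbers gave -0.080 to 0.11. With 3 libraries a group these values cannot exclude a shared litter or preparation. With replicate number as a block, 1542 genes were called, and 3.46% of all tested genes were called lower. In that fit 3 of the 78 members changed, 2 of them lower, and 0 genes of the other lists.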
